A study of Mus musculus with 4 samples.

Results

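The HoxC cluster is 1 of the 4 groups of Hox genes in the mouse genome, and its contacts were followed in Micro-C maps of WT and PATZ1 KO cells before and after motor neuron differentiation. Its members are the 9 genes Hoxc4, Hoxc5, Hoxc6, Hoxc8, Hoxc9, Hoxc10, Hoxc11, Hoxc12 and Hoxc13, which lie in 15 bins of 8 kb at chr15:102920001-103040000 (GRCm38), with a GC content of 49.0%. The pairs of bins taken were those with 1 bin in the cluster and the other in the 2 Mb window around it. Of 3465 possible pairs, the list for embryonic stem cells (ESCs) held 1264 (36.5%) among its 23095428 pairs, and the list for motor neurons (MNs) held 1172 (33.8%) among its 21005697 pairs.

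The 4 libraries were WT ESCs, PATZ1 KO ESCs, WT MNs and PATZ1 KO MNs, with 1 library in each. All cells derived from E14 mouse ESCs grown in 2i medium with LIF. The MNs were cervical and came from embryoid bodies given 1 µM retinoic acid and 0.5 µM smoothened agonist. The PATZ1 KO (KO from here on) was made with CRISPR/Cas9 from the WT E14 cells, and the sources do not say which KO clone went into Micro-C, so each genotype was treated as 1 line. Genotype, clone and library cannot be told apart in this design, no difference below has a replicate check, and every interval covers counting error only.

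Hox genes encode transcription factors that give cells their position along the body axis, and within a cluster they sit in the order in which they are used from head to tail. Hoxc4 and Hoxc5 act at cervical levels of the spinal cord, Hoxc6 and Hoxc8 at the level of the forelimb, Hoxc9 in the thoracic cord and Hoxc10 to Hoxc13 in more caudal segments. In ESCs the clusters are held silent by Polycomb proteins and are known to fold compactly, and in MNs the used and unused parts of a cluster are known to separate at borders bound by factors such as CTCF. PATZ1 is a zinc finger protein with AT-hooks that binds G-rich DNA and was studied as an insulation factor at such borders.

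Because PATZ1 recognizes G-rich DNA, the reference sequence of the cluster was searched on both strands for GGGAGGGG, allowing overlapping matches. The cluster held 56 matches, 54 of them without overlap, in 14 of its 15 bins. The mean of 3.73 matches per bin compared with 1.20 over the 12563 bins of chromosome 15, of which 55.2% held at least 1 match, and with 1.94 over the 680 bins of the chromosome with GC content within 1 percentage point, of which 77.1% did. Most matches, 33, lay in introns, 15 lay between genes and 8 in untranslated exon sequence. The bin over the start of Hoxc9 held 9 matches, 8 of them without overlap, the most of the 15 bins. Its own GC content was 53.3%, and of the 274 bins of the chromosome within 1 percentage point of that, 4.01% held as many, with a mean of 3.19. It is shown because its edges turn up in the MN maps below. Of its matches, 4 in the introns of Hoxc9 read as follows on the plus strand of GRCm38, with the motif in capitals and 10 bases on each side:
chr15:102977529-102977556: aagggaaccaGGGAGGGGggcggggaag
chr15:102982216-102982243: caaccagctcGGGAGGGGaggggaggcc
chr15:102983485-102983512: ctgtgaggatGGGAGGGGgcagaggagg
chr15:102983702-102983729: aagctgaacaGGGAGGGGatatagggag
A match describes the letters and not a bound site, and PATZ1 binding was not analysed here.

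Contacts summed over the listed pairs of all chromosomes ranged from 110991835 in WT MNs to 170946673 in WT ESCs. Every direction rests on reading the first interaction column as WT and the second as KO, since the labels name the genotypes in that order. The cell state was checked at Sox2, which in ESCs is known to contact a distal control region about 100 kb downstream. That contact stood at 6.22 times the level expected at its distance in WT ESCs and at 3.45 in KO ESCs, against 0.995 in WT MNs and 0.587 in KO MNs. The MN values rest on 8 and 5 contacts, with intervals of 0.43 to 1.96 and 0.19 to 1.37. The ESC intervals, 4.99 to 7.67 in WT and 2.51 to 4.63 in KO, did not overlap, so the ESC libraries differed at this contact by more than counting error. No contact was set as a check of MN identity. The first bin of Patz1 made 562 contacts in WT and 399 in KO ESCs, and 380 in WT and 228 in KO MNs, but a contact list does not show the edit itself. The libraries also differed in GC content. In MNs the median log2 ratio of KO over WT of a bin's total contacts went from 0.36 in bins of 35% GC to -0.45 in bins of 55% GC, and in ESCs it went from -0.12 to 0.097. For this reason the main values of HoxC were also set against autosomal blocks of 15 bins with GC content within 1 percentage point, of which there were 992.

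To ask how compact the cluster was in each cell state, contacts between HoxC bins at least 16 kb apart were divided by the mean at the same distance on chromosome 15. The internal contacts numbered 1515 in WT ESCs, 1141 in KO ESCs, 1041 in WT MNs and 742 in KO MNs. Observed over expected, the level was 1.499 (95% interval 1.42 to 1.58) in WT ESCs, 1.30 (1.22 to 1.37) in KO ESCs, 1.52 (1.42 to 1.61) in WT MNs and 1.06 (0.986 to 1.14) in KO MNs. The cluster was thus denser than its distance predicts in 3 of the libraries, and in the KO MN library the interval took in 1. Within each cell state, the KO library lay below the WT library before GC content was matched. Set against GC-like blocks, the KO library remained lower in ESCs, at a log2 value of -0.26 (-0.38 to -0.15). In MNs that value was -0.0091 (-0.15 to 0.13), so a larger difference than in GC-like blocks was not shown there. The WT levels of the cell states were near each other (log2 ratio of MN over ESC 0.015, -0.0999 to 0.13), but GC-like blocks were higher in the WT MN library, with a median of 0.40. Against them HoxC stood at -0.39 (-0.50 to -0.27), with 26 of the 992 blocks lower, and in KO cells at -0.22 (-0.36 to -0.085), with 115 lower.

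Before GC content was matched, the level in WT cells at short and long range went opposite ways between the cell states. At 16 to 32 kb it was 1.41 in WT ESCs (908 contacts) and 1.603 in WT MNs (708 contacts), although GC-like blocks were higher still in the WT MN library and HoxC stood at -0.24 (-0.39 to -0.098, log2) against them. At 72 kb and beyond, the distance that joins the Hoxc13 end of the cluster to the Hoxc4 end, it was 1.32 (137 contacts) in WT ESCs and 0.884 (59 contacts) in WT MNs. The log2 ratio of MN over ESC at that range was -0.57 (-1.04 to -0.12) in WT and -0.80 (-1.36 to -0.26) in KO cells. Among GC-like blocks the WT MN library ran higher than the WT ESC library, with a median of 0.35. Against that median HoxC stood at -0.93, and 25 of the 992 blocks were lower. In KO cells the blocks had a median near 0 (-0.0044), HoxC stood at -0.79 against it, and 36 blocks were lower. Both genotypes therefore had fewer end-to-end contacts in MNs than in ESCs by more than counting error. At 40 to 64 kb WT HoxC stood at -0.60 (-0.82 to -0.38) against GC-like blocks. Against the blocks, WT HoxC was thus lower in MNs at each range.

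**Figure D1:**
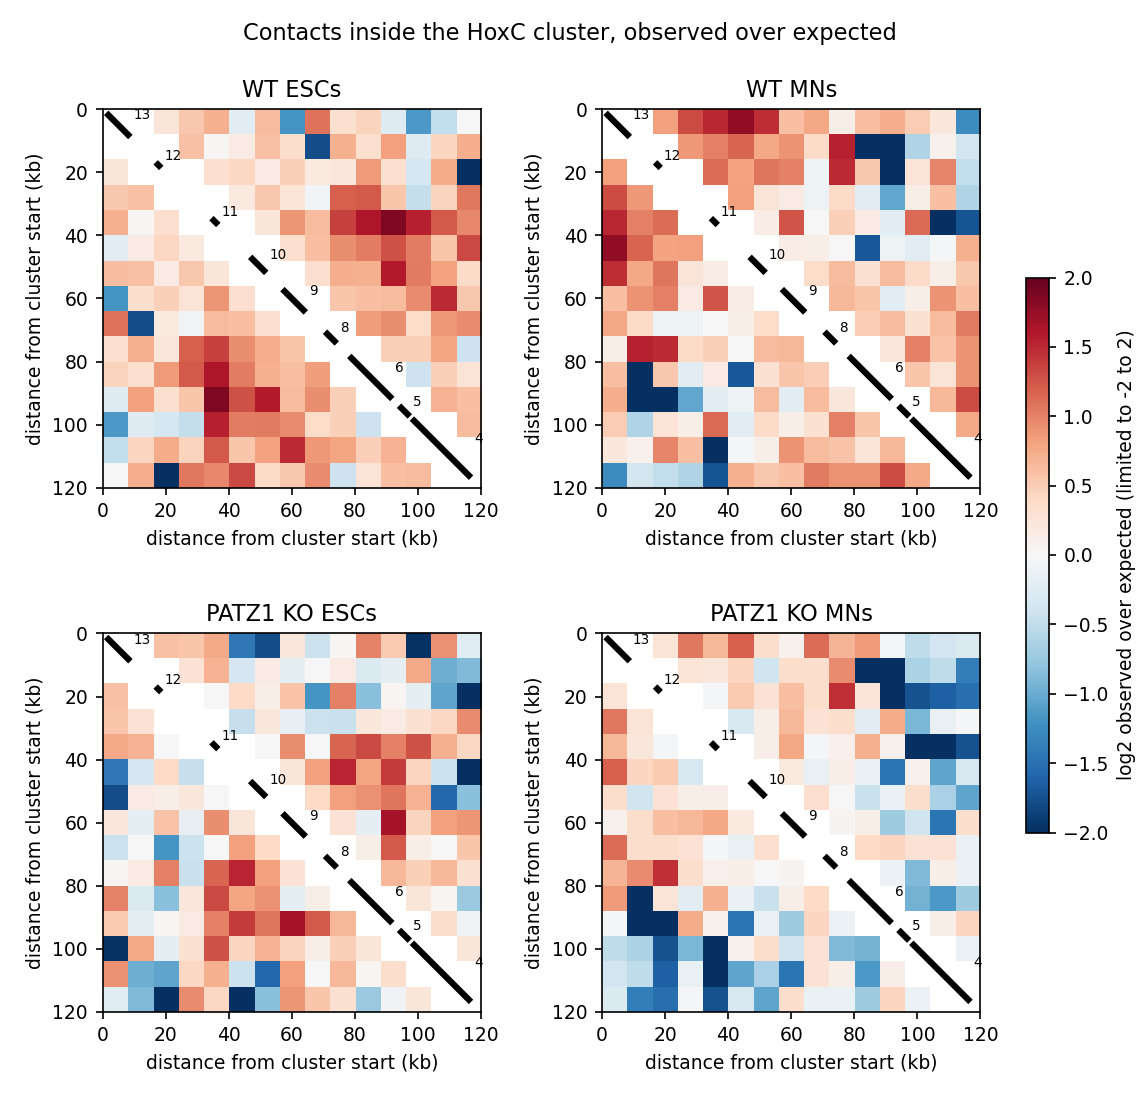
Each square is a pair of 8 kb bins inside HoxC, both axes give the distance from the cluster start in kb, and colour gives log2 observed over expected contact, limited to -2 to 2, with unlisted pairs drawn at -2 and bars on the diagonal marking the 9 genes by number. In WT ESCs the strongest colour lies where Hoxc11 and Hoxc10 meet Hoxc6 to Hoxc4, and in WT MNs it lies among Hoxc13 to Hoxc10, near the upper left corner.

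The maps placed the lower end-to-end contact of MNs between the caudal and the rostral genes. The caudal genes Hoxc13 to Hoxc10 fill bins 1 to 7, and the rostral genes Hoxc6 to Hoxc4 fill bins 10 to 15. Bin 10 also holds part of Hoxc8, whose contacts there count with the rostral group. These groups were drawn after the maps were seen, so their values are a description. Contacts between the caudal and rostral genes numbered 492 in WT ESCs, 344 in KO ESCs, 209 in WT MNs and 166 in KO MNs. Observed over expected, they stood at 1.80 (1.64 to 1.97), 1.44 (1.29 to 1.603), 1.146 (0.996 to 1.31) and 0.896 (0.765 to 1.04) in that order. Both MN libraries lay below both ESC libraries.

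The steepest part of this difference was at Hoxc11 and Hoxc10. Their contacts with Hoxc6 to Hoxc4 stood at 2.20 (320 contacts) in WT ESCs and at 1.77 (224 contacts) in KO ESCs, against 1.14 (113 contacts) in WT MNs and 0.841 (85 contacts) in KO MNs. The log2 ratio of MN over ESC was -0.95 in WT cells, and -1.33 (-1.65 to -1.01) against the same bin pairs of GC-like blocks. In KO cells it was -1.07, and -1.003 (-1.38 to -0.64) against the blocks. These bins were picked for their strong contact in the WT ESC map, which favours a lower value in the other libraries, so the size of the difference is a description only.

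Contacts among the caudal genes themselves were higher for their distance in WT MNs than in WT ESCs. Between bins of Hoxc13 to Hoxc10 they numbered 321 in WT ESCs and 334 in the shallower WT MN library, or 1.28 (1.14 to 1.43) and 1.95 (1.74 to 2.17) observed over expected. In KO cells they numbered 246 in ESCs and 217 in MNs, or 1.13 (0.992 to 1.28) and 1.24 (1.08 to 1.42). GC-like blocks shifted in the same direction in WT cells, with a median log2 ratio of MN over ESC of 0.43, so that HoxC stood 0.17 above them with an interval of -0.055 to 0.40. In KO cells HoxC stood 0.22 above them, with an interval of -0.053 to 0.49, so both intervals spanned 0.

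Contacts among the rostral genes Hoxc6 to Hoxc4 were, of these groups, the one in which the genotypes differed most in MNs. They numbered 243 in WT ESCs, 193 in KO ESCs, 202 in WT MNs and 106 in KO MNs. Observed over expected, they stood at 1.34, 1.23, 1.63 and 0.842 in that order, so the KO MN library was the lowest and the WT MN library the highest. The log2 ratio of KO over WT in MNs was -0.96, and -0.49 (-0.85 to -0.15) against GC-like blocks. The ratio in ESCs against the blocks was -0.18 (-0.46 to 0.095).

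Some pairs of member genes are given as examples, and since they were picked for their values in these libraries no pattern is read from them. Hoxc5 and Hoxc11 had 43 contacts in WT ESCs and 25 in KO ESCs, or 3.31 (2.40 to 4.47) and 2.21 (1.43 to 3.26) observed over expected, and 13 and 6 contacts in WT and KO MNs, or 1.49 and 0.677. Hoxc6 and Hoxc11, chosen after their values were seen, stood at 3.04 (73 contacts) in WT ESCs, 2.25 (47 contacts) in KO ESCs, 1.16 (19 contacts) in WT MNs and 1.254 (21 contacts) in KO MNs. Hoxc10 and Hoxc13, both caudal, stood at 1.23 (47 contacts) in WT ESCs and 0.666 (22 contacts) in KO ESCs, and at 2.51 (66 contacts) in WT MNs and 1.42 (38 contacts) in KO MNs. Hoxc4 and Hoxc12, a rostral and a caudal gene also chosen after their values were seen, stood at 0.834 (12 contacts, 0.431 to 1.46) in WT ESCs, 0.476 (6 contacts) in KO ESCs, 1.31 (12 contacts, 0.678 to 2.29) in WT MNs and 0.324 (3 contacts) in KO MNs. The caudal genes Hoxc10 and Hoxc11, chosen likewise, stood at 1.19 (30 contacts), 0.998 (22 contacts), 1.11 (19 contacts) and 1.09 (19 contacts) in that order. The intervals of these last 2 pairs in WT ESCs and WT MNs overlapped.

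To ask where along the cluster contacts were interrupted, the share of internal contacts that crossed each interval between neighbouring genes was taken in each library, at the nearest bin edge, which can fall inside a gene. In WT ESCs the share crossing Hoxc9|Hoxc8 was 48.1% (728 of 1515 contacts, 95% Clopper-Pearson interval 45.5 to 50.6), and in WT MNs it was 33.5% (349 of 1041 contacts, 30.7 to 36.5). The difference of MN minus ESC was -14.5 percentage points (-18.3 to -10.7). At Hoxc10|Hoxc9 it was -11.7 points (-15.5 to -7.86) and at Hoxc8|Hoxc6 -13.4 points (-17.1 to -9.63). At the caudal end it was positive, with 10.5 points (6.95 to 14.2) at Hoxc12|Hoxc11 and 8.05 points (4.79 to 11.4) at Hoxc13|Hoxc12. Fewer of the WT contacts thus crossed the middle of the cluster, on both sides of Hoxc9, in MNs than in ESCs. In KO cells the difference was -8.26 points (-12.8 to -3.69) at Hoxc9|Hoxc8 and -11.4 points (-15.7 to -6.92) at Hoxc8|Hoxc6, but at Hoxc10|Hoxc9 it was -3.09 points with an interval of -7.64 to 1.49. At Hoxc11|Hoxc10 it was 7.10 points (2.63 to 11.6) in KO cells and -0.48 points (-4.27 to 3.35) in WT cells.

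Set against distance, crossing contacts in WT MNs were fewest at the edge 64 kb from the cluster start, which falls inside Hoxc9 and was taken as Hoxc9|Hoxc8, at 1.20 (1.08 to 1.33) observed over expected, among the edges from 16 to 104 kb. They were most frequent at 16 kb, at 1.84. In WT ESCs the middle of the cluster was instead the best connected, with 1.77 at 72 kb and the lowest value, 1.24, at 24 kb. In KO ESCs the highest value, 1.46, was also at 72 kb and the lowest, 1.03, at 32 kb. In KO MNs the lowest value lay further towards Hoxc4, inside Hoxc6 at 88 kb, with 0.750 (0.644 to 0.867), and the highest at 16 kb with 1.28. The WT MN curve was flat from 48 to 88 kb, between 1.20 and 1.28 with intervals that overlapped. Counting error thus leaves the place of its lowest point within that range. In KO MNs the values from 80 to 104 kb ran between 0.750 and 0.865, also with intervals that overlapped. A shift of the lowest point between the genotypes was therefore not shown. None of these levels was matched for GC content.

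**Figure D2:**
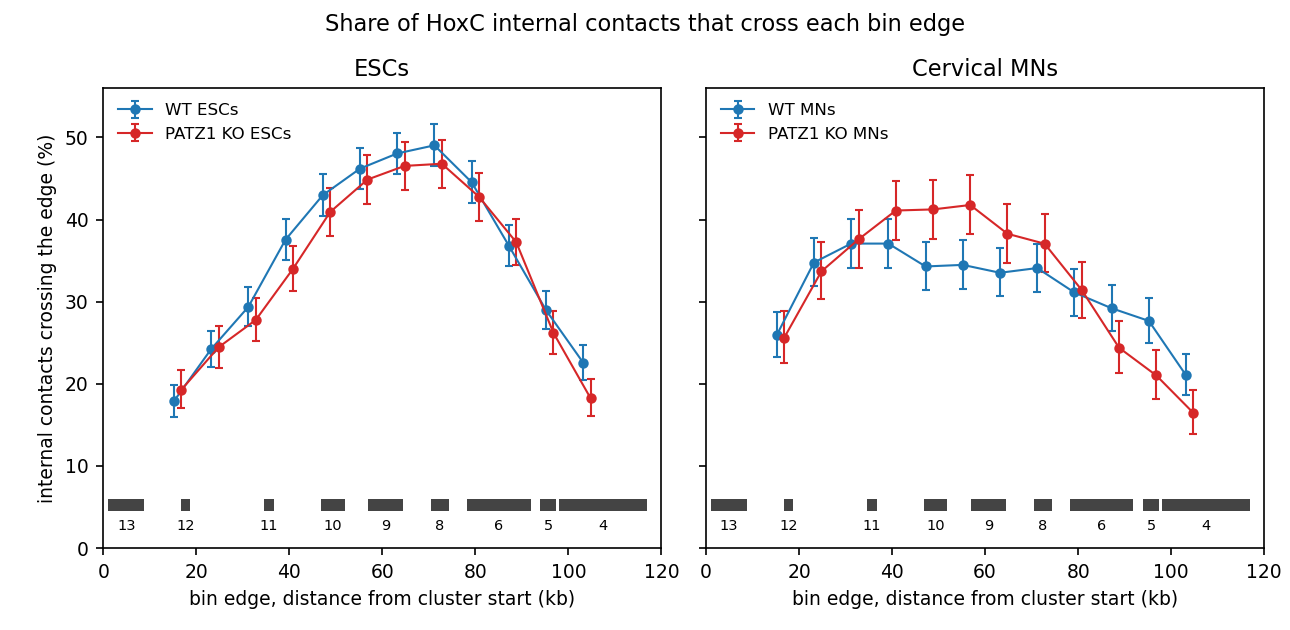
The share of internal HoxC contacts (16 kb or more apart) that crossed each bin edge is plotted in percent against the distance of the edge from the cluster start in kb, with 95% binomial intervals, points of the genotypes offset sideways for clarity, and bars along the foot marking the 9 genes by number. In ESCs both curves peak near Hoxc8, and in MNs the WT curve is lower than the KO curve around Hoxc10 and Hoxc9 and higher towards Hoxc4.

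Between the genotypes, the shares differed by more than counting error in MNs at Hoxc10|Hoxc9, at Hoxc9|Hoxc8 and at the edge shared by Hoxc6|Hoxc5 and Hoxc5|Hoxc4. At the other 4 intervals in MNs, and at every interval in ESCs, the interval of the difference spanned 0. At Hoxc10|Hoxc9 the share was 34.5% in WT MNs (359 of 1041 contacts) and 41.8% in KO MNs (310 of 742 contacts), a difference of 7.29 percentage points (2.72 to 11.9). At Hoxc9|Hoxc8 it was 33.5% and 38.3%, a difference of 4.75 points (0.244 to 9.27). At Hoxc6|Hoxc5, which falls on the same bin edge as Hoxc5|Hoxc4, it was 27.7% (288 contacts) and 21.0% (156 contacts), a difference of -6.64 points (-10.6 to -2.59). Set against the same bin edges of the GC-like blocks, the differences in MNs were 6.83 points (2.26 to 11.4) at Hoxc10|Hoxc9, with 5 of 992 blocks higher, and -7.01 points (-10.95 to -2.96) at Hoxc6|Hoxc5, with 3 blocks lower. At Hoxc9|Hoxc8 the difference was then 4.31 points with an interval of -0.20 to 8.83, which spans 0, and 55 blocks were higher. The KO MN library thus had a larger share of contacts past Hoxc10|Hoxc9 and a smaller one past Hoxc5.

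A share can be higher while the contacts themselves are fewer for their distance, and before GC matching that was the case at Hoxc10|Hoxc9. Contacts that crossed Hoxc10|Hoxc9 stood at 1.23 observed over expected in WT MNs and at 1.05 in KO MNs. Contacts that stayed on 1 side of this interval stood at 1.72 and 1.07. These levels were not matched for GC content, and internal contacts of GC-like blocks had a median log2 ratio of KO over WT of -0.48 in MNs. Contacts of Hoxc13 to Hoxc10 with Hoxc6 to Hoxc4, which all cross this interval, stood at -0.36 in MNs. Against GC-like blocks they stood at 0.065 (-0.24 to 0.37). Fewer crossing contacts than in GC-like blocks were thus not shown. At Hoxc6|Hoxc5 crossing contacts stood at 1.45 in WT MNs and at 0.772 in KO MNs. The largest difference in ESCs was at Hoxc11|Hoxc10, with 37.6% in WT and 34.0% in KO ESCs, a difference of -3.55 points (-7.20 to 0.14).

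To ask whether the cluster gained or lost contact in KO cells beyond what its distance and GC content predict, internal contacts were compared at matched distance and then with the GC-like blocks. In ESCs the log2 ratio of KO over WT was -0.24 (-0.35 to -0.13), while the median block stood at 0.024. The relative value was therefore -0.26 (-0.38 to -0.15), and 19 of the 992 blocks were lower. In MNs the ratio was -0.49 (-0.63 to -0.35), while the median block stood at -0.48. The relative value was -0.0091 (-0.15 to 0.13), and 447 of the 992 blocks were lower. In MNs the lower internal contact of HoxC as a whole was thus what regions of like GC content showed, and in ESCs it was lower than in most of them. The ESC value turned to 0.070 when bin totals, which hold the internal contacts themselves, were divided out.

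**Figure D3:**
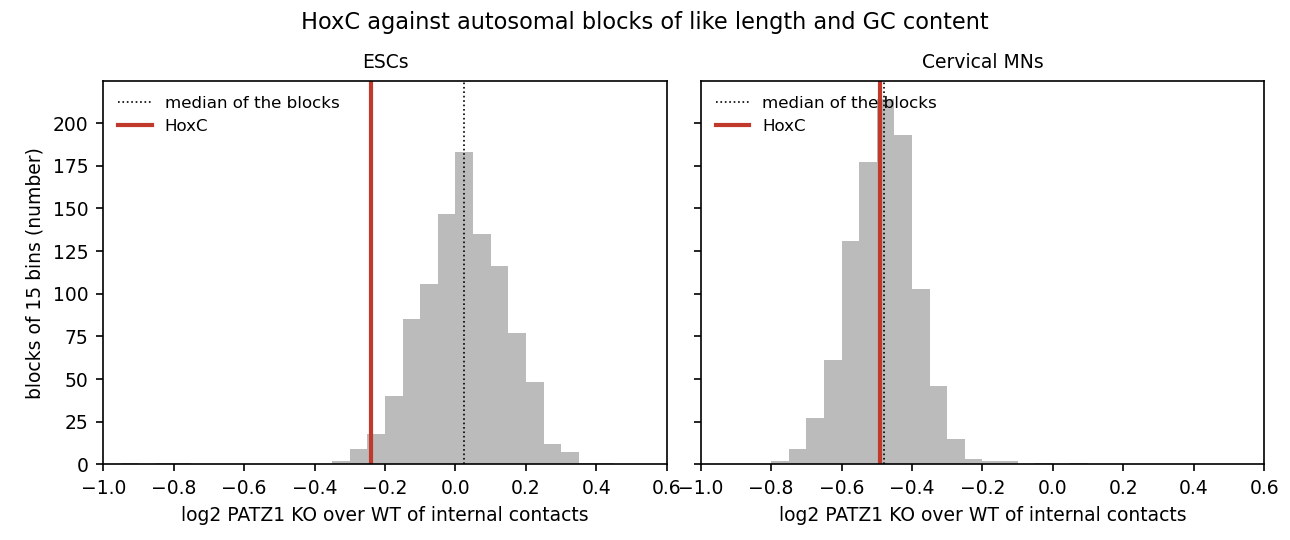
Histograms give the log2 ratio of KO over WT for internal contacts of the 992 autosomal blocks of 15 bins with GC content like that of HoxC, with the number of blocks on the vertical axis, the block median as a dotted line and HoxC in red. In ESCs HoxC sits at -0.24, left of most blocks, and in MNs at -0.49, next to the block median.

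In ESCs the relative value was most negative at middle range, but its interval overlapped those of the other distance classes. At 40 to 64 kb the contacts numbered 470 in WT and 296 in KO ESCs, and the relative value was -0.50 (-0.72 to -0.29), with 11 blocks lower. At 16 to 32 kb they numbered 908 and 749, and it was -0.15 (-0.29 to -0.0092). At 72 kb and beyond they numbered 137 and 96, and it was -0.34 with an interval of -0.73 to 0.049. Contacts within a bin, 3989 and 3183, and between neighbouring bins, 1230 and 925, stood at -0.41 and -0.44, with 5 blocks lower in each case. In MNs the same 5 classes lay between -0.11 and 0.089, and each interval spanned 0.

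The other Hox clusters stood above HoxC in both cell states. Their relative values for internal contacts in ESCs were 0.26 (0.16 to 0.36) for HoxA, 0.048 (-0.045 to 0.14) for HoxB and 0.31 (0.17 to 0.45) for HoxD. In MNs they were 0.36, 0.25 and 0.26, with 860 of 860, 612 of 613 and 1137 of 1145 GC-like blocks lower than the cluster. HoxC was the lowest of the 4 clusters in both cell states, and its interval overlapped that of no other cluster in ESCs.

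Each member gene was then taken alone, through the contacts of its bins with partners 16 to 200 kb away. In ESCs all 9 members stood below 0 against bins of like GC content, as did 68.6% of all genes, with a median of -0.27 where all 19795 protein-coding genes had a median of -0.062. The lowest was Hoxc10, with 984 contacts in WT and 696 in KO ESCs and a relative log2 ratio of -0.37 (-0.51 to -0.23). The highest was Hoxc5, with 1060 and 852 contacts and -0.18 (-0.31 to -0.047). Past a log2 ratio of 0.32 either way, 1 of the 9 members was called lower, Hoxc10, against 2.92% of all genes, and 0 were called higher, against 0.248%. The remaining members lay closely together inside that limit, with Hoxc9 at -0.31, Hoxc6 and Hoxc8 at -0.28, Hoxc4 at -0.27, Hoxc12 at -0.25, Hoxc13 at -0.22 and Hoxc11 at -0.21. Since neighbouring genes share bins and partners, these 9 values are not independent of each other.

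In MNs the same genes stood near the bins of like GC content. None of the 9 members was called lower, against 0.751% of all genes, and none was called higher, against 1.95%. Their median was -0.053, where all 19702 genes had a median of -0.00072. The lowest was Hoxc4, the most rostral member, with 1129 contacts in WT and 753 in KO MNs and a relative log2 ratio of -0.26 (-0.39 to -0.12). The other 8 members lay between -0.098 for Hoxc10 and 0.0074 for Hoxc9, and each of their intervals spanned 0. Between these lay Hoxc11 at -0.087, Hoxc12 at -0.054, Hoxc13 at -0.053, Hoxc8 at -0.039, Hoxc6 at -0.024 and Hoxc5 at -0.022. Hoxc4 was the member whose contacts were lower beyond counting error in both cell states.

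**Figure D4:**
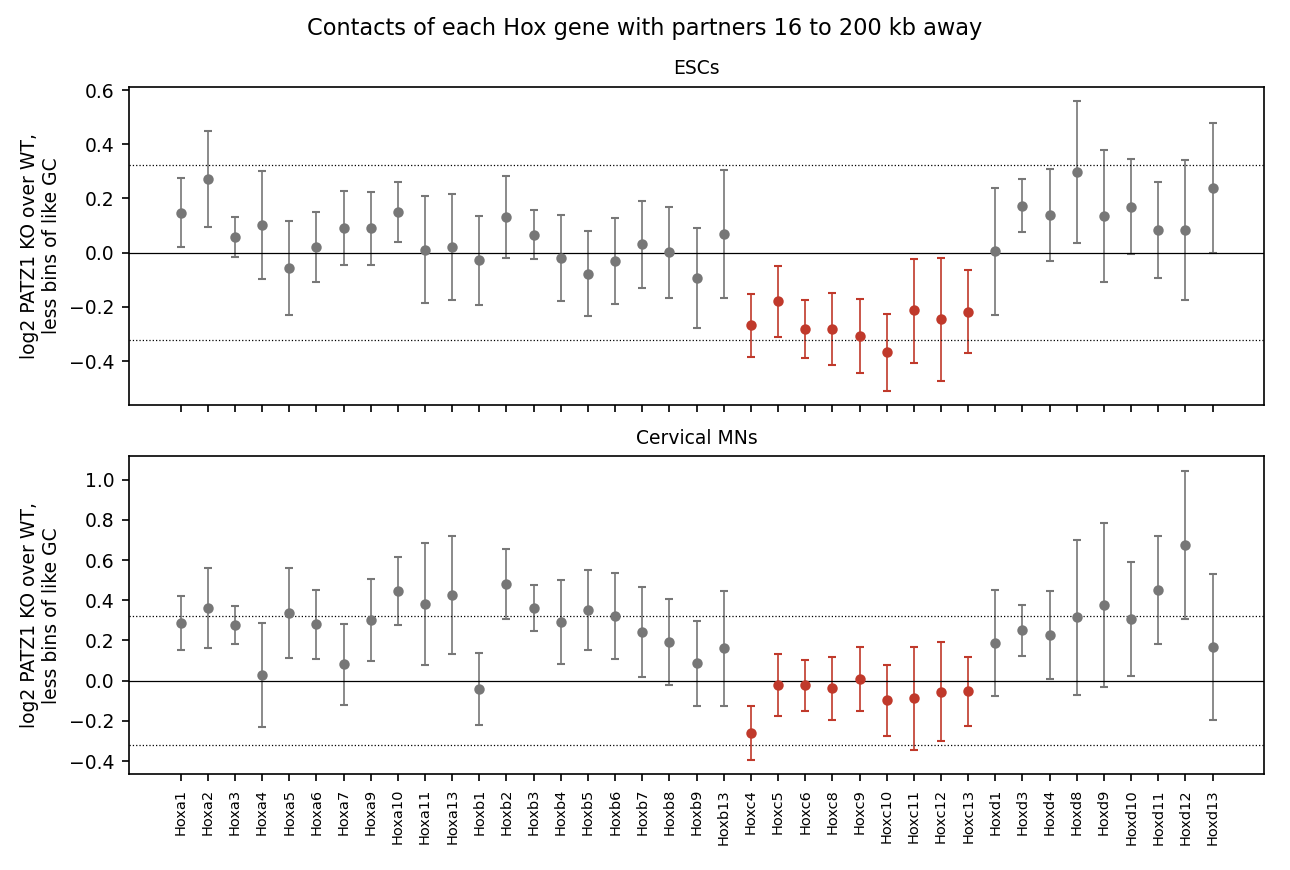
The log2 ratio of KO over WT of each Hox gene's contacts with partners 16 to 200 kb away, less the median of bins of like GC content, is plotted with its 95% counting interval, HoxC members in red, the other clusters in grey, and the limit of 0.32 either way as dotted lines. In ESCs the 9 HoxC members sit between -0.37 and -0.18, and in MNs they sit below nearly all genes of the other clusters.

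Beside the members, 10 of 11 Hoxa genes and 9 of 9 Hoxd genes stood above 0 in ESCs, and Hoxb genes split evenly, with 5 of 10 above 0, where 31.4% of all genes were. In MNs 11 of 11 Hoxa genes, 9 of 10 Hoxb genes and 9 of 9 Hoxd genes stood above 0, where 49.7% of all genes did, and 5, 3 and 3 of them were called higher, against 1.95% of all genes. The lowest of these genes in MNs was Hoxb1 at -0.042 and the highest Hoxd12 at 0.68. In ESCs they ran from Hoxb9 at -0.094 to Hoxd8 at 0.30. Neighbouring genes of these clusters share bins and partners as well, so they are not separate observations.

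Among pairs of members with at least 50 contacts over both libraries, 21 of 29 stood below 0 in ESCs, with a median log2 ratio of -0.21 at matched distance. This was not matched for GC content, and the internal contacts of GC-like blocks had a median of 0.024. Some pairs share bins, so they are not separate observations, and no share over other pairs was taken. The lowest was Hoxc4 with Hoxc10, which had 73 contacts in WT and 29 in KO ESCs, or -1.17 (-1.84 to -0.53). It was followed by Hoxc10 with Hoxc13 at -0.92 (47 and 22 contacts, interval -1.73 to -0.17) and Hoxc5 with Hoxc11 at -0.62 (43 and 25 contacts, interval -1.39 to 0.13). The highest were Hoxc11 with Hoxc13 at 0.33 (35 and 39 contacts), Hoxc12 with Hoxc13 at 0.31 (30 and 33 contacts) and Hoxc5 with Hoxc9 at 0.26 (81 and 86 contacts), each with an interval that spanned 0. Hoxc10 was a partner in the lowest 2 pairs, but its pairs with Hoxc8, Hoxc6 and Hoxc9 stood at 0.20, 0.035 and 0.014. Its pairs with Hoxc5, Hoxc11 and Hoxc12 stood at -0.34, -0.28 and -0.057, each with an interval that spanned 0. Hoxc4 with Hoxc5, chosen like these after the values were seen, also had an interval below 0, at -0.47 (104 and 67 contacts, -0.93 to -0.0084).

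In MNs 20 of 21 such pairs stood below 0, with a median of -0.52 that was not matched for GC content and lay close to the -0.48 of GC-like blocks. The lowest were Hoxc11 with Hoxc12 at -1.13 (37 and 17 contacts, interval -2.05 to -0.27), Hoxc5 with Hoxc6 at -1.12 (67 and 31 contacts, interval -1.78 to -0.48) and Hoxc4 with Hoxc6 at -1.05 (153 and 74 contacts, interval -1.47 to -0.64). The highest were Hoxc8 with Hoxc13 at 0.0016 (29 contacts in each), Hoxc9 with Hoxc10 at -0.034 (53 and 52 contacts) and Hoxc9 with Hoxc13 at -0.15 (30 and 27 contacts). The lowest of these named pairs lay within the rostral or caudal genes, and the highest joined Hoxc8 or Hoxc9 to caudal genes. They were picked for their values, so no pattern of position is read from them. Other pairs differed. Hoxc10 with Hoxc11, both caudal, had 19 contacts in each genotype in MNs. Hoxc4 with Hoxc8 stood at -0.80 (77 and 44 contacts, interval -1.37 to -0.25).

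Single pairs of bins with at least 20 contacts were counted past a fold of 1.5 over the cluster and its window. In ESCs 45 of 211 HoxC pairs (21.3%) were lower in KO, against 10.1% of all autosomal pairs and 9.05% of pairs of like GC content, and 13 were higher, against 9.93% and 11.5%. In MNs 59 of 149 HoxC pairs (39.6%) were lower, against 12.3% of all pairs and 32.1% of pairs of like GC content, and 2 were higher, against 12.9% and 1.82%. The HoxC share lower in MNs was therefore above that of pairs of like GC content, though closer to it than to that of all pairs. With the authors' distance-adjusted signal it was 43.0%, against 31.2% of pairs of like GC content.

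Contacts of HoxC with the chromosome around it were split by side. Towards the telomere, where Smug1 and Cbx5 lie, contacts numbered 3751 in WT and 2652 in KO ESCs, and 3370 in WT and 2299 in KO MNs. HoxC was set against GC-like blocks with flanks of the same length, so GC content was matched for the block and not for the flank. It stood at a log2 ratio of -0.34 (-0.41 to -0.27) in ESCs and of -0.24 (-0.32 to -0.16) in MNs, and 5 of 992 blocks were lower in each cell state. The block of 15 bins next to HoxC had a GC content of 47.8% on the telomere side and of 43.2% on the centromere side. The part that this plays in the difference between the sides was not tested. Towards the centromere contacts numbered 2279 and 1921 in ESCs and 1673 and 1392 in MNs. There the relative value was -0.092 (-0.18 to -0.0034) in ESCs, with 188 blocks lower, and 0.046 (-0.058 to 0.15) in MNs, with 711 blocks lower. With only pairs of at least 5 contacts in both libraries, the telomere-side value was -0.29 in ESCs, with 14 of 991 blocks lower. In MNs it was then -0.16, with 115 of 991 blocks lower, so the low rank in MNs was not kept under that setting. In the main setting the telomere side was thus lower in KO cells of both states than in nearly all GC-like blocks. The centromere side lay within the spread of the blocks, with an ESC interval that stayed negative. Part of the telomere side lies in a stretch of lower bin totals, described below. Bin totals were not divided out for flank contacts, so their part in these values was not tested.

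The flanking genes with most contact to the cluster for their distance were on that telomere side. Smug1, which encodes a uracil-DNA glycosylase of base excision repair and lies 113.3 kb from the cluster, came first in both cell states. It had 497 contacts with HoxC in WT and 369 in KO ESCs, or 3.997 and 3.33 observed over expected, and 467 and 324 in MNs, or 6.37 and 4.42. At matched distance it stood at a log2 ratio of -0.30 (-0.50 to -0.10) in ESCs and of -0.51 (-0.72 to -0.31) in MNs. These ratios were not matched for GC content, and the contacts of GC-like blocks with a flank of the same length had a median of -0.024 in ESCs and of -0.31 in MNs. Through its own contacts 16 to 200 kb away, against bins of like GC content, Smug1 stood at -0.26 (-0.39 to -0.13) in ESCs and at -0.0040 (-0.14 to 0.13) in MNs.

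Cbx5, which encodes the heterochromatin protein HP1 alpha, had 537 contacts in WT and 337 in KO ESCs, or -0.55 (-0.75 to -0.35), and 428 and 320 in MNs, or -0.41 (-0.62 to -0.20). Gpr84, a receptor for medium-chain fatty acids 268.2 kb away, had 46 and 25 contacts in ESCs, or -0.78 (-1.55 to -0.049), and 54 and 27 in MNs, or -0.999 (-1.72 to -0.31). Hnrnpa1, which encodes an RNA-binding splicing factor, had 78 and 51 contacts in ESCs, or -0.50, with an interval that reached 0.027. The one gene of the centromere side among the leading 5 in ESCs was Calcoco1, with 114 and 93 contacts, or -0.18 (-0.59 to 0.23). In MNs Zfp385a (175 and 129 contacts, -0.44) and Copz1, which encodes a subunit of the COPI coat (179 and 130 contacts, -0.46), completed the leading 5. These ratios were matched for distance and not for GC content. All 5 leading genes of MNs and 4 of the 5 of ESCs lay towards the telomere.

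Through their own contacts with partners 16 to 200 kb away, 11 of the 41 flanking protein-coding genes were called lower in ESCs (2.92% of all genes were), with a median of -0.24, and 2 in MNs (0.751% of all genes), with a median of 0.014. Those called lower in ESCs lay on both sides. They were Eif4b, Myg1, Aaas, Amhr2, Pcbp2 and Atp5g2 towards the centromere and Cbx5, Hnrnpa1, Nfe2, Copz1 and Gpr84 towards the telomere. The centromere-side ones lay from 249 kb (Atp5g2) to 822.8 kb (Eif4b) from the cluster. In MNs they were Cbx5 and Hnrnpa1. None was called higher in either state. The lowest was Hnrnpa1 in both, at -0.63 in ESCs and -0.37 in MNs. Neighbouring flanking genes also share bins and partners, so these genes are not separate observations.

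The total number of contacts of each bin was then followed past the cluster. A single stretch of lower totals was fitted by least squares in each cell state after the values had been seen. In ESCs it ran from 48 kb before the cluster to 288 kb past it and in MNs from 64 kb before to 272 kb past it, a length of 456 kb in each. The stretch common to both, at chr15:102872001-103312000 (GRCm38, 440 kb, 55 bins), held the 9 members and 6 other genes, Smug1, Cbx5, Hnrnpa1, Nfe2, Copz1 and Gpr84. Its edges did not coincide with those of HoxC.

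Since its edges were fitted to these same bins, a stretch that is lower than its surroundings is what the fit looks for, and the values inside and outside it are a description. In ESCs all 55 bins of this stretch stood below bins of like GC content, with a median log2 ratio of KO over WT of -0.30. The bins outside it in the 2 Mb window had a median of -0.051, with 122 of 178 below 0. In MNs 52 of 55 bins stood below 0, with a median of -0.25. The bins outside had a median of -0.025, with 101 of 174 below 0. The HoxC bins had a median of -0.36 in ESCs, with 15 of 15 below 0, where the rest of the stretch had -0.28. In MNs they had a median of -0.13, with 12 of 15 below 0, where the rest of the stretch again had -0.28. A bin's total counts every listed contact that it made, so the amount of its DNA in a library and the number of contacts per molecule cannot be told apart.

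**Figure D5:**
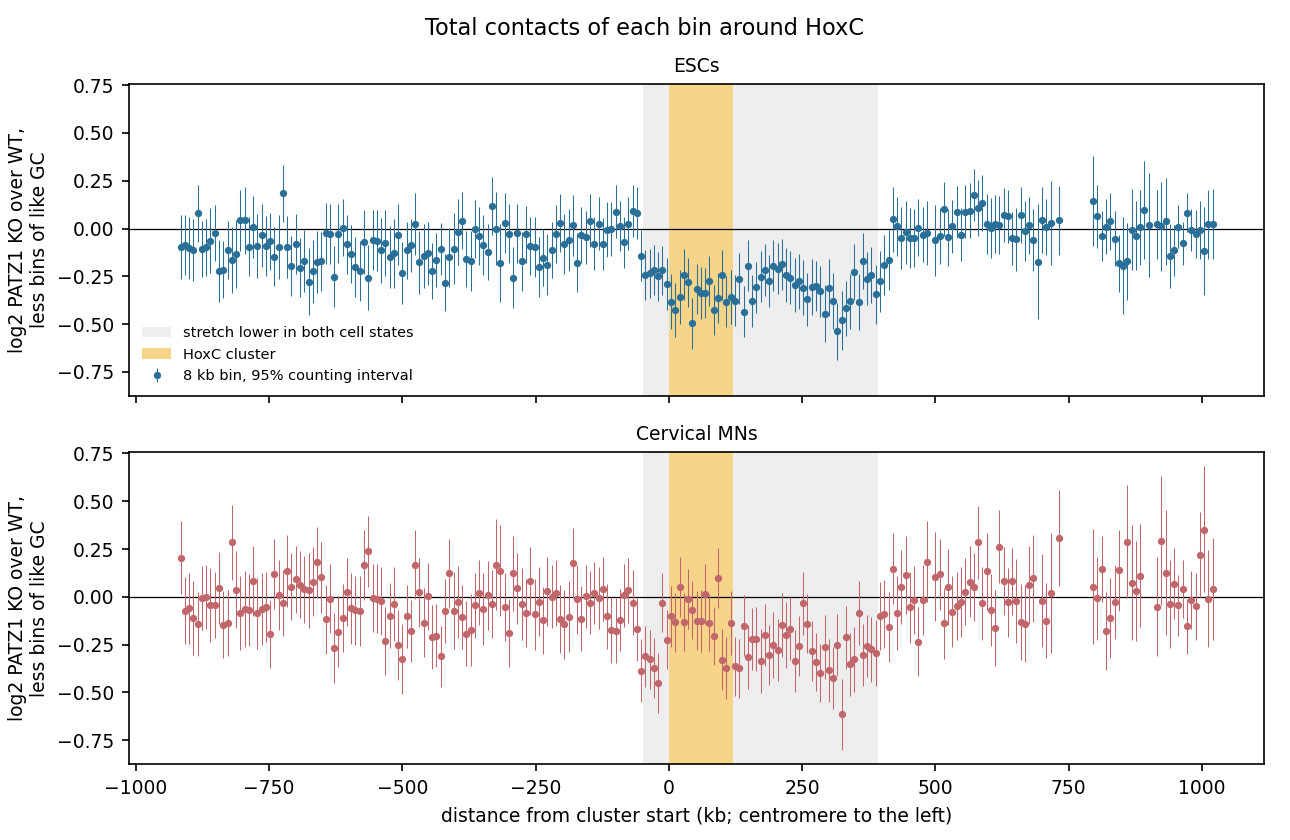
Total contacts of each 8 kb bin in the 2 Mb window are plotted as the log2 ratio of KO over WT less the median of bins of like GC content, with 95% counting intervals, against distance from the cluster start in kb, with the cluster in yellow and the common stretch of lower totals in grey. In ESCs every bin of the stretch lies below 0, and in MNs the cluster is the part of the stretch nearest to 0.

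With the bin totals divided out, the 0.070 of the HoxC internal contacts in ESCs had an interval of -0.042 to 0.18, with 799 of 992 blocks lower, and the MN value was 0.073 (-0.065 to 0.21), with 854 blocks lower. Contacts with both bins in HoxC, at any distance, made up 55.5% to 60.4% of the summed HoxC bin totals in the 4 libraries. This share also counts contacts within a bin (3989 in WT ESCs) and between neighbouring bins (1230). The internal contacts at least 16 kb apart (1515 in WT ESCs) are thus only a part of it. Dividing by the totals therefore also takes out part of a difference in internal contact, and how large a part was not measured. The totals and the internal contacts cannot be fully told apart in this way. Contacts with both bins in the stretch, 16 to 400 kb apart, numbered 11258 in WT and 7892 in KO ESCs, or -0.36 (-0.40 to -0.32) at matched distance, and 9283 and 6394 in MNs, or -0.53 (-0.58 to -0.49). Contacts of the stretch with the telomere side stood at -0.30 and -0.29. Those with the centromere side stood at -0.054 (-0.12 to 0.014) and -0.13 (-0.21 to -0.047), closer to 0. Contacts that lay wholly on the telomere side stood at 0.020 in ESCs and at -0.012 in MNs, and those wholly on the centromere side at -0.18 and -0.27. None of these contact classes was matched for GC content.

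The blocks of 15 bins on either side of HoxC differed from each other in ESCs. The first block of 15 bins past the cluster, which reaches into Smug1, stood at -0.30 (-0.41 to -0.20) against GC-like blocks in ESCs and at -0.16 (-0.28 to -0.035) in MNs. The next block, over Smug1, Cbx5, Hnrnpa1, Nfe2 and Copz1, stood at -0.48 (-0.61 to -0.34) in ESCs, where 2 of 2525 blocks were lower, and at -0.24 (-0.38 to -0.11) in MNs, where 15 of 2515 were. On the centromere side the nearest block stood at 0.0023 (-0.0996 to 0.10) in ESCs and at -0.082 (-0.20 to 0.037) in MNs, and the next, over Calcoco1, at -0.17 (-0.31 to -0.035) and 0.065 (-0.082 to 0.21). In ESCs HoxC, at -0.26, was therefore lower than the block before it and not lower than those past it, while in MNs HoxC itself stood at -0.0091.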

How the data were processed

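Micro-C was performed once in each of 4 groups. Mapping was run for the authors by Dovetail, which then compared WT with PATZ1 KO with HiCcompare, on mm10 per the submitters' processing notes (the same assembly as GRCm38). The interaction frequencies deposited by the authors are counts of contacts per pair of 8 kb bins, unscaled, and a pair seen in only 1 library is not listed. The authors also deposited a signal, adjusted for distance in both libraries at once, which served only as an alternative. Further columns hold the authors' own differences, scores and p-values and were not used.

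Contacts were summed from pairs at least 16 kb apart and compared at matched distance. The expected level is the mean over possible pairs at the same distance on the chromosome. GC matching subtracted the median of autosomal blocks or bins with GC content within 1 percentage point, and bins or genes needed 100 contacts over both libraries. Genes are RefSeq protein-coding genes. With 1 library per group no test was run, and called means past a log2 ratio of 0.32 per gene or a fold of 1.5 per pair with at least 20 contacts. Intervals are at the 95% level, exact binomial, Poisson or Newcombe, and contacts can be PCR copies, so they cover counting error only. A listed pair at HoxC holds few contacts, so single pairs are imprecise.

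The genes named were all 9 members, of the flanks the 5 genes with the highest mean observed over expected contact with the cluster, and of member pairs the 3 lowest and 3 highest with at least 50 contacts. Named besides were flanking genes called lower or lying in the fitted stretch. Further member pairs, some with fewer contacts, were named after their values were seen. The members and lists were chosen with earlier results of these data known. Alternatives covered scaling, distances, GC matching, folds and count minimums. Python 3.11.15, numpy 2.4.6, scipy 1.17.1 and matplotlib 3.10.9 were used, and the scripts were tested on simulated data.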

Additional observations from a re-analysis of the deposited data

Results flagged for a closer look

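Several values had opposite signs in ESCs and MNs, and whether the cell states differ was not tested, since each group had 1 library. Relative to GC-like blocks, contacts of HoxC with the centromere-side flank stood at -0.092 in ESCs and 0.046 in MNs, 0.14 apart on the log2 scale. Contacts of Hoxc9 with partners 16 to 200 kb away stood at -0.31 and 0.0074, or 0.32 apart. In MNs neither value differed from 0 by more than counting error, with intervals of -0.058 to 0.15 and -0.15 to 0.17.

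The share of internal contacts crossing 6 of the gene intervals also differed in sign between cell states, as PATZ1 KO minus WT in percentage points. At Hoxc10|Hoxc9 it was -1.33 in ESCs and 7.29 in MNs, a gap of 8.62. At Hoxc11|Hoxc10 it was -3.55 and 4.03, a gap of 7.58. At Hoxc9|Hoxc8 it was -1.51 and 4.75, a gap of 6.26. At Hoxc8|Hoxc6, Hoxc12|Hoxc11 and Hoxc13|Hoxc12 the gaps were 2.06, -1.31 and -1.72. The counting interval of the difference spanned 0 at all 6 intervals in ESCs and, in MNs, at all but Hoxc10|Hoxc9 and Hoxc9|Hoxc8. From 40 kb upwards the ESC value at Hoxc10|Hoxc9 was 0.876 and at Hoxc11|Hoxc10 1.85, the same sign as in MNs.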

How the results depend on the processing

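Of 142 values recomputed under the alternatives, 122 moved by less than counting error, or for counts by less than 1.5 times. These 122 include counts of members called higher, which were 0 in every setting. They also include the shares at Hoxc6|Hoxc5 and Hoxc5|Hoxc4, which fall on the same bin edge and repeat each other. Counts have no sign, and of the other values among the 122 all but 6 kept theirs. The exceptions were the share crossing Hoxc10|Hoxc9 in ESCs (0.876 percentage points from 40 kb upwards), that crossing Hoxc8|Hoxc6 in MNs (-3.66 from 40 kb upwards and -0.037 against GC-like blocks, added after seeing the data) and internal contacts in MNs, at 0.020 against chromosome 15 alone, 0.054 from 40 kb upwards and 0.073 with bin totals divided out. Internal contacts in ESCs stood at -0.46 from 40 kb upwards, at -0.39 with all distances included and at 0.070 once bin totals were divided out, an alternative added after seeing the data that turned the direction and that, since bin totals hold the internal contacts, takes out part of their difference by construction. In MNs the values without GC matching were -0.49 for internal contacts, -0.26 for the centromere-side flank and -0.54 for the telomere-side flank, and 9 of 9 members were then called lower, as were 35.7% of all genes and 73.4% of genes of like GC content. With a log2 limit of 0.20 in place of 0.32 the members called lower numbered 8 of 9 in ESCs and 1 of 9 in MNs, against 14.7% and 4.25% of all genes. With a fold of 2 the HoxC pairs called lower and higher numbered 22 and 2 of 211 in ESCs and 24 and 0 of 149 in MNs, and those lower made up 10.4% and 16.1%, against 2.80% and 11.0% of pairs of like GC content. With at least 50 contacts they numbered 3 and 1 of 50 in ESCs and 9 and 0 of 39 in MNs, and those lower made up 6.0% and 23.1%, against 1.20% and 20.7%. The difference of the share crossing Hoxc11|Hoxc10 in ESCs was 1.85 percentage points from 40 kb upwards. Internal contacts of MN over ESC in WT stood at 0.015, at -0.29 from 40 kb upwards and at -0.39 against GC-like blocks, also added after seeing the data. Where the construction does not show it, the cause was not tested.

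No paired analysis was possible because each group had 1 library and the labels carry no replicate numbers. Pairs seen in 1 library alone are not in the lists, which lowers the number of weak pairs seen, most of all in the shallower MN libraries and at the longest distances. Values past 72 kb inside the cluster rest on 41 to 137 contacts per library. The fold changes of MN over ESC join lists that were filtered separately.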
